A study of Mus musculus with 20 samples.

Results

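Macrophages pretreated with dimethyl itaconate (DI) were compared after and before the first hour of stimulation with lipopolysaccharide (LPS) and interferon gamma (IFNg). The comparison takes 4 of the 20 libraries of the series, 2 of DI cells at 1 h and 2 of DI cells at 0 h, and covers all 22165 genes of the count table. All cells were bone marrow-derived macrophages of wild-type C57BL/6 mice, grown with macrophage colony-stimulating factor. The DI 1 h cells had 250 µM DI for 12 h before 1 h of LPS and IFNg. The DI 0 h cells had the same 12 h of DI and no LPS or IFNg, so DI is common to both groups and no effect of DI itself is measured here. Ctrl cells without DI, at 1 h and at 0 h of the same stimulus with 2 libraries each, stand beside them only to show where the first hour differed. DI is a methyl ester of itaconate, a metabolite that macrophages make from cis-aconitate with the enzyme Acod1. The labels give no sex or age, and do not say whether replicates were separate mice or cultures. The p-values therefore measure the spread between these libraries, which may be technical.

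LPS, a component of the outer membrane of Gram-negative bacteria, binds TLR4 and activates NF-kB and the MAP kinases through the adaptors MyD88 and TRIF. IFNg binds its own receptor and activates JAK kinases and, through them, STAT transcription factors. In the first hour of such a stimulus the genes that need no new protein synthesis are transcribed: chemokines, Tnf, immediate-early transcription factors, and the feedback inhibitors that later shut the signal down. A secondary wave, including Il6 and Il12b, depends on proteins made in the primary one, among them the atypical nuclear IkB protein encoded by Nfkbiz.

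Total counts were 4412540 and 6391921 in the DI 1 h libraries and 4126920 and 6725447 in the DI 0 h libraries. Levels are library-scaled counts (CPM) with factors from trimmed means of M values (TMM), and the pair of values given for a group is always replicate 1 and then replicate 2. Among genes of at least 20 CPM the median coefficient of variation between replicates was 17.4% at 1 h and 21.4% at 0 h in DI cells, and 13.8% and 11.03% in Ctrl cells. The DI libraries may have held fewer distinct molecules than their totals imply: an estimate from genes of 4 to 12 expected reads gave 4.36 and 7.55 reads per molecule at 1 h and 3.97 and 6.24 at 0 h, against 1.89 to 2.12 in the 4 Ctrl libraries. Expected reads came from the other libraries of all groups, so genes silent in a group also raise the estimate. In the Ctrl libraries at 4 h and 6 h it was 3.08 to 3.44. All 10 macrophage markers were measured and none was called between DI 1 h and DI 0 h. Their summed level, scaled to the library total, was 3883 to 4472 CPM at 1 h and 5331 to 5757 CPM at 0 h in DI cells, and 5310 to 6214 CPM and 6734 to 7102 CPM in Ctrl cells. Of the 9 other cell types checked, neutrophil markers summed to 373 to 475 CPM at 1 h and 542 to 558 CPM at 0 h in DI cells, with Ly6g at 0 in all 4 libraries. Endothelial markers summed to 32.7 to 46.9 CPM at 1 h and 23.5 to 42.2 CPM at 0 h, stromal markers to 22.4 to 22.8 CPM and 28.0 to 41.9 CPM, dendritic cell markers to 9.39 to 26.3 CPM and 15.0 to 20.1 CPM, and T cell markers to 2.04 to 12.52 CPM and 2.53 to 6.30 CPM. B cell, NK cell and erythroid markers were each under 2 CPM in all 4 DI libraries. The only marker of another cell type that was called was the mast cell receptor gene Kit, with 1.005 and 5.16 CPM at 1 h and no reads at 0 h, and the mast cell list summed to 2.49 to 7.67 CPM at 1 h and 0 to 0.242 CPM at 0 h. The part of these levels in the results was not tested.

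The first hour raised far more genes than it lowered. Of 10663 genes tested, 351 were called higher at 1 h than at 0 h in DI cells (3.29%) and 32 were called lower (0.300%), together 3.59%, at a Benjamini-Hochberg adjusted p under 0.05 in edgeR's quasi-likelihood test. Among the 351, 342 rose by 1 or more on the log2 scale and 86 by 3 or more. Their median was 1.92, against −1.80 for the 32 and 0.02 for all genes tested. The libraries of the 2 groups did not overlap for 349 of the 351 and for all 32 of the genes called lower. By itself a lack of overlap was common, at 20.5% of all tested genes with higher values at 1 h and 16.8% with lower values. In 21 of the 351 both DI 0 h libraries were at 0, and in 7 of the 32 both DI 1 h libraries were. With each of the 4 libraries left out in turn, 162 of the 351 were called every time, and 1 of the 32, Rsrp1. A fit to the 4 libraries alone called 195 genes. In bulk RNA, fewer cells with a transcript and less of it per cell cannot be told apart.

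**Figure D1:**
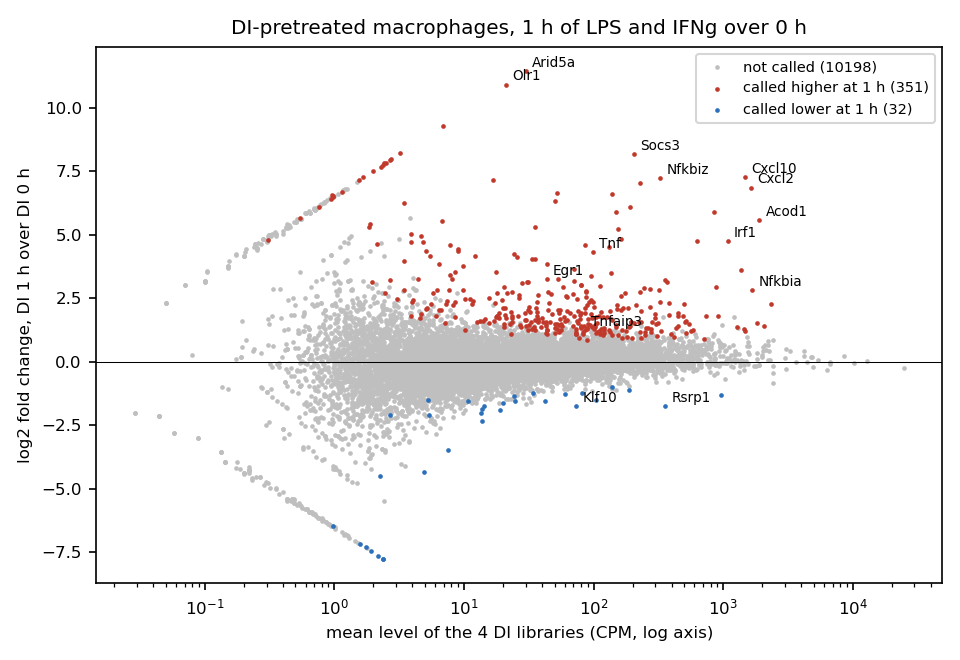
Log2 fold change of DI 1 h over DI 0 h (y axis) against the mean level of the 4 DI libraries in CPM (x axis, log scale), 1 point per tested gene with a count in these libraries. The 351 genes called higher include many at over 100 CPM, such as Cxcl10 and Acod1, and the straight lines of points at the left edges are genes at 0 in every library of 1 group.

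Chemokines were among the genes with the highest fold changes. Of 20 tested chemokine genes 10 were called higher and none lower, with a median log2 fold change of 1.93 over the list. All 10 kept the call without any 1 of the 4 libraries. Cxcl2, which attracts neutrophils through CXCR2, had 3956 and 2565 CPM in the DI 1 h libraries, against 23.9 and 32.5 CPM in the DI 0 h libraries (log2 fold change 6.85 ± 0.37, adjusted p = 2.6e-12). Cxcl1, which acts on the same receptor, had 32.1 and 34.6 CPM in the DI 1 h libraries, against 0.530 and 0 CPM in the DI 0 h libraries (log2 fold change 7.15 ± 0.64, adjusted p = 2.2e-08). From its 408 reads at 1 h and 3 reads at 0 h the ratio was 160.5, with an exact 95% counting interval of 54.5 to 782. For each gene both libraries at 1 h were above both at 0 h. The rule that named these 2 genes required this, and 349 of the 351 genes called higher had it. The ligands of CXCR3, the receptor of activated T cells, rose too. Cxcl10 had 2636 and 3196 CPM in DI cells at 1 h, against 18.6 and 19.2 CPM in DI cells at 0 h (log2 fold change 7.27 ± 0.32, adjusted p = 1.2e-13). Cxcl9 had 299.99 and 203 CPM in DI cells at 1 h, against 8.13 and 13.7 CPM in DI cells at 0 h (log2 fold change 4.51 ± 0.39, adjusted p = 1.3e-08). Cxcl11 had 219.8 and 329 CPM in DI cells at 1 h, against 0 and 5.07 CPM in DI cells at 0 h (log2 fold change 6.60 ± 0.60, adjusted p = 3.4e-08), but in a fit of the 4 libraries alone its adjusted p was 0.13. Ccl4, a macrophage inflammatory protein gene, had 584 and 695 CPM in the DI 1 h libraries, against 85.5 and 53.4 CPM in the DI 0 h libraries (log2 fold change 3.21 ± 0.29, adjusted p = 2.8e-08). The other chemokines called were Ccl2, Ccl3, Ccl7 and Ccl12, with log2 fold changes of 1.88 to 2.74. Ccl5, Ccl6, Ccl9 and Cxcl16 were not called, at −0.15 to 0.21. Cxcl3, at 1.55 ± 0.46, was not called either. The chemokines not called ranged from Ppbp, at −1.29 ± 1.12, to Cxcl5, at 5.62 ± 2.22.

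The promoters of Cxcl10 and Cxcl2 are shown because both genes rose over 100-fold and both hold letters that fit the kB motif, the element bound by NF-kB. Sequences here are RefSeq windows of 300 bases in GRCm38.p6, from 250 bases before the annotated start site, written 5′ to 3′ on the strand of the gene. Cxcl10 lies at chr5:92348840-92349139, minus strand, and Cxcl2 at chr5:90903649-90903948, plus strand.
Cxcl10: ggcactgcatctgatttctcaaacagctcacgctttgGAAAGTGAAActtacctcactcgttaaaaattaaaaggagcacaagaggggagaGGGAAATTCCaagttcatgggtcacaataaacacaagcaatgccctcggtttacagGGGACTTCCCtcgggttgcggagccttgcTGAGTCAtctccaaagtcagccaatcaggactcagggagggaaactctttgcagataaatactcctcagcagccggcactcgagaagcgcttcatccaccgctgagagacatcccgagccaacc
Cxcl2: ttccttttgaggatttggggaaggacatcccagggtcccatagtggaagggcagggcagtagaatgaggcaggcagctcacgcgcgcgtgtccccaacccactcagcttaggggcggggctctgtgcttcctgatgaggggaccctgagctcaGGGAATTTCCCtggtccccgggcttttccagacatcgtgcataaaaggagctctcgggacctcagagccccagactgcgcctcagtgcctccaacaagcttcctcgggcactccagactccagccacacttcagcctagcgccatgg
Capitals mark matches to the kB, ISRE, AP-1, GAS, CRE and CArG motifs, and not those to the antioxidant response element or TATAAA. In Cxcl10 the kB matches begin 159 and 103 bases upstream of the start site, a match to the interferon-stimulated response element (ISRE, TTTCNNTTTC on either strand) begins 213 bases upstream, and a match to the AP-1 motif (TGANTCA) begins 74 bases upstream. The Cxcl10 window also holds an unmarked match to the antioxidant response element (TGACNNNGC, either strand), which overlaps the AP-1 match. In Cxcl2 the capitals are overlapping kB matches, 1 on each strand, and span the bases from 97 to 87 upstream. These are matches of letters, and binding was not measured.

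Some cytokine genes were already high at 1 h and some were barely detected. Others had small log2 fold changes and were not called, such as Igf1 (0.31 ± 0.25) and Ebi3 (−0.12 ± 0.28). Of 29 tested, 10 were called higher and none lower, the list's median log2 fold change was 1.49, and 6 of the 10 kept the call without any 1 library. Tnf had 184 and 190.1 CPM in the DI 1 h libraries, against 8.48 and 10.3 CPM in the DI 0 h libraries (log2 fold change 4.31 ± 0.31, adjusted p = 2.7e-10). Il1a had 130.4 and 69.7 CPM in the DI 1 h libraries, against 2.12 and 0.576 CPM in the DI 0 h libraries (log2 fold change 6.31 ± 0.48, adjusted p = 1e-09). Hbegf, an EGF receptor ligand, had 317 and 282 CPM in the DI 1 h libraries, against 14.5 and 2.31 CPM in the DI 0 h libraries (log2 fold change 5.21 ± 0.52, adjusted p = 1.5e-07). Il1rn, which encodes the antagonist of the IL-1 receptor, had 434 and 507 CPM in the DI 1 h libraries, against 149.7 and 178 CPM in the DI 0 h libraries (log2 fold change 1.52 ± 0.25, adjusted p = 0.00026). These 4 genes had no overlap between the groups, which held for 349 of the 351 genes called higher. Il1b and Il6 were called as well but from few reads. Il1b had 5.63 and 3.49 CPM in DI cells at 1 h, against 0 and 0 CPM in DI cells at 0 h, which makes it at least 10.4-fold higher at a floor of 3 counts per library, with an adjusted p of 6.5e-06. Il6 had 1.41 and 2.51 CPM in DI cells at 1 h, against 0 and 0 CPM in DI cells at 0 h, at least 4.47-fold higher, with an adjusted p of 0.00082. In a fit of the 4 libraries alone their adjusted p was 0.070 and 0.55. Il6 also lost the call with limma-voom (adjusted p = 0.068) and on counts collapsed to estimated molecules (adjusted p = 0.14). The fold bounds of both genes count reads, and the DI 0 h libraries held an estimated 3.97 and 6.24 reads per molecule. Il12b, a subunit of IL-12 and IL-23, had 0.402 and 0.837 CPM in DI cells at 1 h, against 0 and 0 CPM in DI cells at 0 h and was not called (adjusted p = 0.12). Il10 had 3.42 and 1.67 CPM in DI cells at 1 h, against 2.47 and 0.461 CPM in DI cells at 0 h and was not called either (adjusted p = 0.7).

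**Figure D2:**
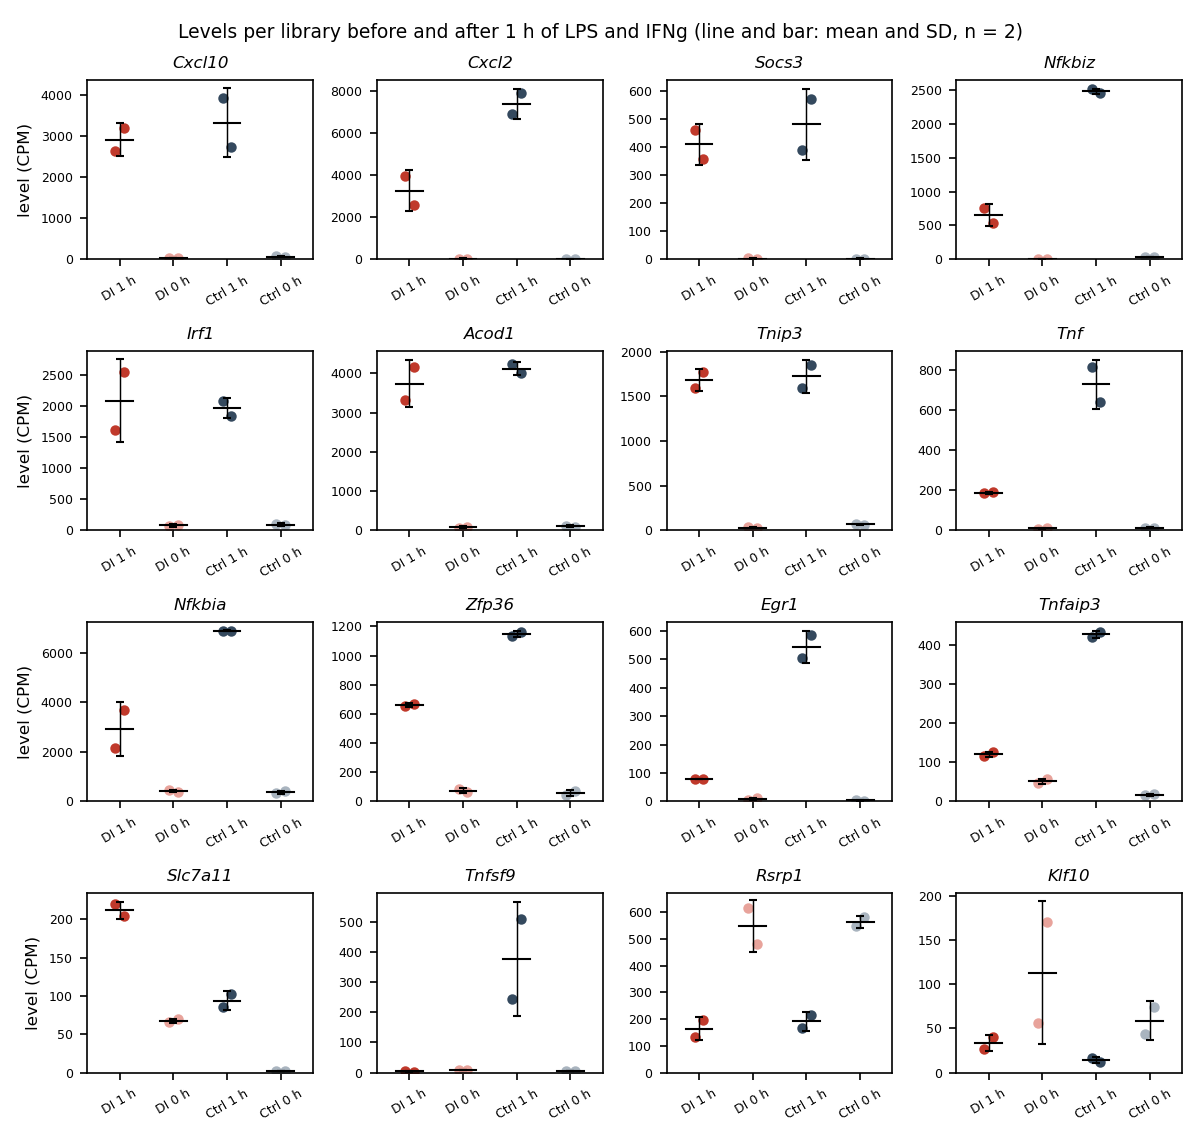
Levels of 16 genes in CPM (y axes, from 0) in each library of DI and Ctrl cells at 1 h and at 0 h. Points are libraries, lines and bars are the mean and SD of 2 libraries. Cxcl10, Socs3, Irf1, Acod1 and Tnip3 reach levels at 1 h in DI cells near those of Ctrl cells, while Tnfsf9 is at 4.42 and 3.35 CPM in DI cells at 1 h and at 243 and 510 CPM in Ctrl cells at 1 h.

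NF-kB feedback genes rose in part. Of 30 tested subunits and regulators 14 were called higher and none lower, the list's median log2 fold change was 0.83, and 8 of the 14 kept the call without any 1 library. Nfkbiz had 764 and 536 CPM in the DI 1 h libraries, against 4.59 and 4.03 CPM in the DI 0 h libraries (log2 fold change 7.24 ± 0.34, adjusted p = 2.5e-13). Tnip3, which encodes a ubiquitin-binding partner of A20, had 1590 and 1766 CPM in the DI 1 h libraries, against 32.2 and 24.9 CPM in the DI 0 h libraries (log2 fold change 5.88 ± 0.30, adjusted p = 8e-13). Nfkbia, which encodes the inhibitor IkB alpha that holds NF-kB in the cytosol, had 2153 and 3713 CPM in the DI 1 h libraries, against 457 and 382 CPM in the DI 0 h libraries (log2 fold change 2.81 ± 0.28, adjusted p = 1.2e-07). Its groups did not overlap, as in 349 of the 351 genes called higher, although replicate 2 was well above replicate 1 at 1 h. Birc3, a ubiquitin ligase of the TNF receptor complex, had 141 and 165 CPM in DI cells at 1 h, against 25.4 and 19.7 CPM in DI cells at 0 h (log2 fold change 2.77 ± 0.29, adjusted p = 2.7e-07), and Tank, a TRAF-binding adaptor, had 84.4 and 66.8 CPM in DI cells at 1 h, against 21.4 and 19.6 CPM in DI cells at 0 h (log2 fold change 1.88 ± 0.31, adjusted p = 0.00021). Among the subunits themselves Rel and Relb were called, at log2 fold changes of 1.27 and 1.72, and Nfkb1, Nfkb2 and Rela were not, at 0.79, 0.76 and 0.39. Rel, Relb or both lost the call when 1 library was left out. Tnfaip3, which encodes the deubiquitinase A20, had 116 and 126 CPM in DI cells at 1 h, against 46.1 and 56.6 CPM in DI cells at 0 h (log2 fold change 1.24 ± 0.34, adjusted p = 0.039). It lost its call without any 1 of the 4 libraries (log2 1.10, adjusted p = 0.27 without DI 0 h replicate 1). Nfkbid, another atypical IkB gene, had 6.43 and 8.37 CPM in DI cells at 1 h, against 21.2 and 11.2 CPM in DI cells at 0 h and was not called (adjusted p = 0.18).

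The Nfkbia promoter, at chr12:55492598-55492897, minus strand of GRCm38.p6, is shown for its kB match close to the start site.
Nfkbia: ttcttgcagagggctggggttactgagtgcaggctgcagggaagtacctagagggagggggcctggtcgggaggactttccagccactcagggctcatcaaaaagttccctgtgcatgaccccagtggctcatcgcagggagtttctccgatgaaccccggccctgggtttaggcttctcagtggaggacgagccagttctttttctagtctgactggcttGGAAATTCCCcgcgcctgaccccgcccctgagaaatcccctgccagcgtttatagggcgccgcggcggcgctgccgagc
The match, in capitals, begins 29 bases upstream and reads on the strand opposite to the gene. Unmarked matches to the antioxidant response element and to TATAAA are also in this window.

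Immediate-early transcription factors were divided. Of 33 tested 16 were called higher and 1, Klf10, was called lower, the list's median log2 fold change was 1.05, and 11 of the 16 kept the call without any 1 library. Egr1, a zinc finger factor induced by ERK signalling, had 79.6 and 78.2 CPM in the DI 1 h libraries, against 5.66 and 10.6 CPM in the DI 0 h libraries (log2 fold change 3.25 ± 0.36, adjusted p = 6.1e-07). Maff, a small MAF protein, had 79.4 and 84.8 CPM in DI cells at 1 h, against 4.59 and 6.57 CPM in DI cells at 0 h (log2 fold change 3.86 ± 0.36, adjusted p = 4e-08). Nfil3, a bZIP repressor, had 42.8 and 54.7 CPM in DI cells at 1 h, against 1.77 and 3.57 CPM in DI cells at 0 h (log2 fold change 4.14 ± 0.38, adjusted p = 2.8e-08). Junb, a subunit of AP-1, had 224 and 278 CPM in DI cells at 1 h, against 59.6 and 48.1 CPM in DI cells at 0 h (log2 fold change 2.22 ± 0.31, adjusted p = 2.9e-05), and the zinc finger gene Klf6 had 4259 and 3564 CPM in DI cells at 1 h, against 623 and 991 CPM in DI cells at 0 h (log2 fold change 2.28 ± 0.26, adjusted p = 1.1e-06). In each of these 5 genes both 1 h libraries were above both 0 h libraries, as in 349 of the 351 genes called higher. Csrnp1 had 71.7 and 67.4 CPM in DI cells at 1 h, against 0 and 3.11 CPM in DI cells at 0 h (log2 fold change 5.29 ± 0.54, adjusted p = 2.1e-07). Other classical members of the class were not called. Fos had 63.7 and 36.8 CPM in the DI 1 h libraries, against 59.9 and 61.6 CPM in the DI 0 h libraries (log2 fold change −0.28 ± 0.45, adjusted p = 0.88), with overlapping groups. Atf3, a stress-induced repressor, had 526 and 590.3 CPM in the DI 1 h libraries, against 324 and 525 CPM in the DI 0 h libraries (log2 fold change 0.39 ± 0.27, adjusted p = 0.59), and its lower 1 h library was level with the higher 0 h library. Myc had 16.7 and 17.3 CPM in the DI 1 h libraries, against 32.2 and 25.2 CPM in the DI 0 h libraries (log2 fold change −0.75 ± 0.51, adjusted p = 0.58). Ier3, an anti-apoptotic early gene, was called with 31.9 and 39.6 CPM in DI cells at 1 h, against 15.4 and 6.45 CPM in DI cells at 0 h (log2 fold change 1.73 ± 0.39, adjusted p = 0.0077), and lost the call without DI 1 h replicate 2 or DI 0 h replicate 2 (log2 1.22, adjusted p = 0.13 without DI 0 h replicate 2).

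Inhibitors of MAP kinase signalling and regulators of mRNA decay were called higher in 4 of 14 and in 6 of 20 tested members, with none lower and median log2 fold changes of 0.73 and 0.58. Without any 1 library 1 of the 4 and 5 of the 6 kept the call. Dusp1, the phosphatase that inactivates p38 and JNK, had 565 and 703 CPM in the DI 1 h libraries, against 149 and 106 CPM in the DI 0 h libraries (log2 fold change 2.31 ± 0.30, adjusted p = 9.3e-06). Dusp5, an ERK phosphatase, had 354 and 385 CPM in DI cells at 1 h, against 55.3 and 129 CPM in DI cells at 0 h (log2 fold change 2.00 ± 0.38, adjusted p = 0.0012), with an adjusted p of 0.057 without DI 0 h replicate 1. Dusp16 and Spred1 were the other members called. Dusp16 lost the call without replicate 2 of either group and Spred1 without replicate 1 of either group (log2 1.503, adjusted p = 0.18 without DI 0 h replicate 2 for Dusp16; log2 0.81, adjusted p = 0.24 without DI 0 h replicate 1 for Spred1). Dusp6 had 66.9 and 43.9 CPM in DI cells at 1 h, against 125 and 105 CPM in DI cells at 0 h and was not called (adjusted p = 0.18). Zfp36, whose protein tristetraprolin directs the decay of AU-rich mRNAs such as Tnf, had 652 and 669 CPM in the DI 1 h libraries, against 85.4 and 64.4 CPM in the DI 0 h libraries (log2 fold change 3.14 ± 0.28, adjusted p = 2.2e-08). The replicates of Zfp36 lay close together in both groups. Zc3h12c, an RNase of the Regnase family, had 71.9 and 79.2 CPM in DI cells at 1 h, against 12.2 and 18.3 CPM in DI cells at 0 h (log2 fold change 2.30 ± 0.32, adjusted p = 2.9e-05). Btg2, a partner of the CCR4-NOT deadenylase, had 117 and 214 CPM in DI cells at 1 h, against 31.6 and 33.3 CPM in DI cells at 0 h (log2 fold change 2.35 ± 0.33, adjusted p = 3.1e-05). Arid5a, which binds and stabilises Il6 mRNA, had 62.3 and 58.2 CPM in the DI 1 h libraries, against 0 and 0 CPM in the DI 0 h libraries. It was at least 138-fold higher at a floor of 3 counts per library (adjusted p = 6.9e-11). Zc3h12a, which encodes Regnase-1, had 12.1 and 15.2 CPM in DI cells at 1 h, against 1.59 and 4.03 CPM in DI cells at 0 h (log2 fold change 2.22 ± 0.42, adjusted p = 0.0013), and the fit of the 4 libraries alone gave an adjusted p of 0.13.

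Among feedback inhibitors of cytokine receptors Socs1, Socs3, Cish and Ptpn2 rose, while Socs2, Socs4, Socs5, Socs6 and Socs7, at log2 fold changes of −0.66 to 0.32, and the JAK kinase genes did not pass the test. Of 25 tested SOCS, JAK, STAT and PIM genes 6 were called higher and none lower, the list's median log2 fold change was 0.32, and 4 of the 6 kept the call without any 1 library. Socs3, which blocks gp130 receptors, had 460.3 and 357 CPM in the DI 1 h libraries, against 2.47 and 0.576 CPM in the DI 0 h libraries (log2 fold change 8.18 ± 0.53, adjusted p = 5.6e-11). Socs1, which blocks JAK1 and JAK2 below the IFNg receptor, had 303 and 328 CPM in the DI 1 h libraries, against 13.1 and 9.45 CPM in the DI 0 h libraries (log2 fold change 4.81 ± 0.30, adjusted p = 3.1e-11). The groups did not overlap for either gene, as in 349 of the 351 genes called higher. The kinase gene Pim1 had 468 and 403 CPM in DI cells at 1 h, against 41.5 and 76.1 CPM in DI cells at 0 h (log2 fold change 2.88 ± 0.31, adjusted p = 4e-07), and the transcription factor gene Stat3 had 371 and 306 CPM in DI cells at 1 h, against 134 and 92.9 CPM in DI cells at 0 h (log2 fold change 1.58 ± 0.25, adjusted p = 0.00018). Cish was called at 2.71 (adjusted p = 0.037 in edgeR's test), and lost the call when 1 library was left out. Ptpn2, a phosphatase of JAK kinases, was called with 57.5 and 97.5 CPM in DI cells at 1 h, against 19.3 and 35.6 CPM in DI cells at 0 h (log2 fold change 1.49 ± 0.35, adjusted p = 0.011), but not without DI 1 h replicate 2 or DI 0 h replicate 1 (log2 1.06, adjusted p = 0.21 without DI 1 h replicate 2). Jak1, Jak2, Jak3 and Stat2 did not pass, at 0.14 to 1.34, nor did Tyk2, at −1.003.

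Genes induced by IFNg had the highest share of calls of the 19 lists. Of 26 tested 14 were called higher and none lower, the list's median log2 fold change was 1.26, and 10 of the 14 kept the call without any 1 library. Irf1, an early transcription factor gene of the IFNg response, had 1619 and 2557 CPM in the DI 1 h libraries, against 63.8 and 91.4 CPM in the DI 0 h libraries (log2 fold change 4.75 ± 0.31, adjusted p = 5.8e-11). Iigp1, an immunity-related GTPase, had 1362 and 1065 CPM in the DI 1 h libraries, against 55.1 and 36.5 CPM in the DI 0 h libraries (log2 fold change 4.73 ± 0.32, adjusted p = 1e-10). Gbp5, a guanylate-binding protein gene, had 368 and 385 CPM in DI cells at 1 h, against 3.18 and 7.49 CPM in DI cells at 0 h (log2 fold change 6.09 ± 0.44, adjusted p = 3e-10). Both 1 h libraries exceeded both 0 h libraries in all 3, as in 349 of the 351 genes called higher. Gbp2, Gbp3, Gbp4, Gbp6 and Gbp7 were called too, at log2 fold changes of 0.97 to 3.77, and so was Icam1, which encodes an integrin ligand, with 43.8 and 46.9 CPM in DI cells at 1 h, against 7.78 and 8.18 CPM in DI cells at 0 h (log2 fold change 2.50 ± 0.27, adjusted p = 3.7e-07). The immunoproteasome genes Psmb8, Psmb9 and Psmb10 were not called, at −0.21 to 0.14. Genes stimulated by type I interferon gave 9 calls. Of 36 tested 9 were called higher and none lower, with a median of 0.82 and a maximum of 2.71, and 3 of the 9 kept the call without any 1 library. Rsad2, which encodes the antiviral protein viperin, had 3304 and 2671 CPM in DI cells at 1 h, against 1079 and 1199.9 CPM in DI cells at 0 h (log2 fold change 1.39 ± 0.25, adjusted p = 0.00066). Slfn5 had 1289 and 1557 CPM in DI cells at 1 h, against 388 and 423 CPM in DI cells at 0 h (log2 fold change 1.81 ± 0.28, adjusted p = 9.5e-05). Ifi205, of the p200 family, had 260.2 and 349.9 CPM in DI cells at 1 h, against 21.2 and 71.3 CPM in DI cells at 0 h (log2 fold change 2.71 ± 0.42, adjusted p = 0.00012). Ifi204 lost the call without DI 0 h replicate 1, and Parp14 without replicate 1 of either group (log2 1.07, adjusted p = 0.057 without DI 0 h replicate 1 for Ifi204; log2 1.02, adjusted p = 0.13 without DI 0 h replicate 1 for Parp14). Isg15, Oas1a, Irf7 and Bst2 were not called, at −0.24 to 0.23. The 27 genes not called reached up to 1.32, for Phf11d, which is above the called Parp14, at 1.19. Counts of the p200 and guanylate-binding families may be split among close copies.

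Irf1 and Socs3 are both known targets of STAT factors, and their promoters hold matches to the gamma-activated sequence (GAS, TTCNNNGAA), so these are shown. The Irf1 window lies at chr11:53769764-53770063, plus strand, and the Socs3 window at chr11:117969317-117969616, minus strand, both in GRCm38.p6.
Irf1: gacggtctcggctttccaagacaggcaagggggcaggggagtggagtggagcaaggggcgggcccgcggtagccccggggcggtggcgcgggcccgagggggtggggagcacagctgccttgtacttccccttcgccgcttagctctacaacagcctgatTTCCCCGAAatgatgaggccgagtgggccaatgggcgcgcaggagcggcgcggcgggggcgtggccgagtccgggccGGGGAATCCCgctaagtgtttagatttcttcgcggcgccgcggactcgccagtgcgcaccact
Socs3: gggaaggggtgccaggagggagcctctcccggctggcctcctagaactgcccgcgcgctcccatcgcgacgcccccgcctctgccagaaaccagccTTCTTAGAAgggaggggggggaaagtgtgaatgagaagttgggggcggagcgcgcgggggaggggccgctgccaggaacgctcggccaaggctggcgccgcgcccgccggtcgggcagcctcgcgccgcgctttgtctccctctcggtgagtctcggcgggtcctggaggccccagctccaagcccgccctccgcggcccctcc
In Irf1 the first run of capitals is the GAS match, which begins 90 bases upstream of the start site, and the second is a kB match that begins 13 bases upstream. RefSeq gives Irf1 a further start site, whose window is not shown. In Socs3 the capitals are a GAS match that begins 154 bases upstream.

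Across the genes called higher, a promoter window was found for 286 of 351, and for 8484 of the 10663 tested. A kB match, on either strand, was present in 12.2% of the 286 and in 6.25% of the 8484. The GAS motif was in 14.3% against 8.36%, the ISRE in 9.79% against 4.17%, and the AP-1 motif in 12.2% against 6.19%. The CRE motif (TGACGTCA) was in 5.94% against 3.76% and the CArG box, bound by SRF, in 1.75% against 1.53%. The letters TATAAA were in 18.2% against 8.75%. The antioxidant response element, bound by NRF2, was in 23.1% against 17.0%. Among the 64 windowed genes that rose by 3 or more on the log2 scale the share was 18.8% each for the kB motif, the GAS motif, TATAAA and the antioxidant response element, 21.9% for AP-1, 10.9% for the ISRE, 7.81% for the CRE and 1.56% for the CArG box. These motifs can overlap, and a gene with several windows counted once if any window matched. The shares are descriptions of letters in these windows and were not tested. By the GENCODE annotation the genes that rose by 3 or more on the log2 scale spanned a median of 14.3 kb with 5 exons, all 351 genes called higher 22.1 kb with 7 exons, and the 32 called lower 11.5 kb with 8.5 exons, against 24.5 kb and 9 exons for all genes tested.

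Surface molecules of activation were called higher in 16 of 38 tested members and lower in none, the list's median log2 fold change was 0.84, and 14 of the 16 kept the call without any 1 library. Cd69, an early activation lectin, had 99.5 and 107 CPM in the DI 1 h libraries, against 0.353 and 1.498 CPM in the DI 0 h libraries (log2 fold change 6.64 ± 0.41, adjusted p = 2.9e-11). Cd83 had 54.7 and 38.5 CPM in DI cells at 1 h, against 0.530 and 4.03 CPM in DI cells at 0 h (log2 fold change 4.22 ± 0.46, adjusted p = 4.9e-07). Ccrl2, a chemerin-binding receptor, had 32.3 and 39.3 CPM in DI cells at 1 h, against 4.77 and 4.495 CPM in DI cells at 0 h (log2 fold change 2.95 ± 0.31, adjusted p = 3.1e-07). Olr1, the receptor for oxidised low-density lipoprotein, had 45.6 and 38.5 CPM in the DI 1 h libraries, against 0 and 0 CPM in the DI 0 h libraries, at least 96.02-fold higher at a floor of 3 counts per library (adjusted p = 3.7e-10). The costimulatory genes Cd40 and Cd86 and the checkpoint ligand Cd274 were called at 2.52, 2.13 and 2.82. Cd80, Tlr2, Tlr4 and the IFNg receptor genes Ifngr1 and Ifngr2 were not, at −0.23 to 0.97.

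Inducible enzymes of activated macrophages were called higher in 11 of 35 members and lower in none, with a median of 0.82, and 9 of the 11 kept the call without any 1 library. Acod1, whose product makes itaconate itself, had 3311 and 4174 CPM in the DI 1 h libraries, against 62.9 and 93.6 CPM in the DI 0 h libraries (log2 fold change 5.58 ± 0.35, adjusted p = 4.2e-11). Its groups did not overlap, as in 349 of the 351 genes called higher. Ptgs2, the inducible cyclooxygenase gene, had 167 and 93.9 CPM in the DI 1 h libraries, against 13.8 and 7.15 CPM in the DI 0 h libraries (log2 fold change 3.66 ± 0.36, adjusted p = 1.2e-07). Sod2, the mitochondrial superoxide dismutase gene, had 389 and 401 CPM in DI cells at 1 h, against 61.7 and 56.8 CPM in DI cells at 0 h (log2 fold change 2.74 ± 0.28, adjusted p = 1.5e-07). Arg2, the mitochondrial arginase gene, had 17.7 and 17.02 CPM in DI cells at 1 h, against 0 and 1.38 CPM in DI cells at 0 h (log2 fold change 4.42 ± 0.63, adjusted p = 3e-05). Upp1, a uridine phosphorylase gene, had 6.03 and 2.23 CPM in DI cells at 1 h, against 0.177 and 0.115 CPM in DI cells at 0 h (log2 fold change 4.63 ± 0.67, adjusted p = 3.8e-05), with 2 reads at 0 h, a ratio of 27.1 (exact 95% counting interval 7.10 to 231) and an adjusted p of 0.34 in the fit of the 4 libraries alone. Nos2, the inducible nitric oxide synthase gene, had 0.201 and 1.26 CPM in DI cells at 1 h, against 0.177 and 0.231 CPM in DI cells at 0 h and was not called (adjusted p = 0.48). Arg1, Hif1a and Hk2 were not called either, at log2 fold changes of −0.16, 0.71 and 0.63. Pde4b, a cAMP phosphodiesterase gene outside the list, had 496 and 418 CPM in the DI 1 h libraries, against 1.06 and 5.53 CPM in the DI 0 h libraries (log2 fold change 7.02 ± 0.46, adjusted p = 6.9e-11).

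Genes of survival and death were called higher in 6 of 26 and lower in 1, with a median of 0.62, and 5 of the 6 kept the call without any 1 library. Casp4, which encodes the mouse caspase-11 that senses cytosolic LPS, had 207 and 142 CPM in the DI 1 h libraries, against 19.6 and 14.3 CPM in the DI 0 h libraries (log2 fold change 3.37 ± 0.32, adjusted p = 4.3e-08). Nlrp3, the inflammasome sensor gene, had 108 and 100.005 CPM in DI cells at 1 h, against 35.2 and 20.9 CPM in DI cells at 0 h (log2 fold change 1.90 ± 0.27, adjusted p = 3e-05). Cflar, which inhibits caspase-8, had 737 and 646 CPM in DI cells at 1 h, against 197 and 205 CPM in DI cells at 0 h (log2 fold change 1.78 ± 0.25, adjusted p = 2e-05), and Phlda1 had 155 and 131 CPM in DI cells at 1 h, against 16.8 and 18.7 CPM in DI cells at 0 h (log2 fold change 3.01 ± 0.29, adjusted p = 7.4e-08). Gadd45g, a stress sensor gene, had 107 and 214 CPM in DI cells at 1 h, against 34.6 and 24.4 CPM in DI cells at 0 h (log2 fold change 2.45 ± 0.35, adjusted p = 3.8e-05). The member called lower was Bbc3, the gene of the pro-apoptotic BH3 protein PUMA, at −1.54, which did not keep its call without 1 of the libraries.

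**Figure D3:**
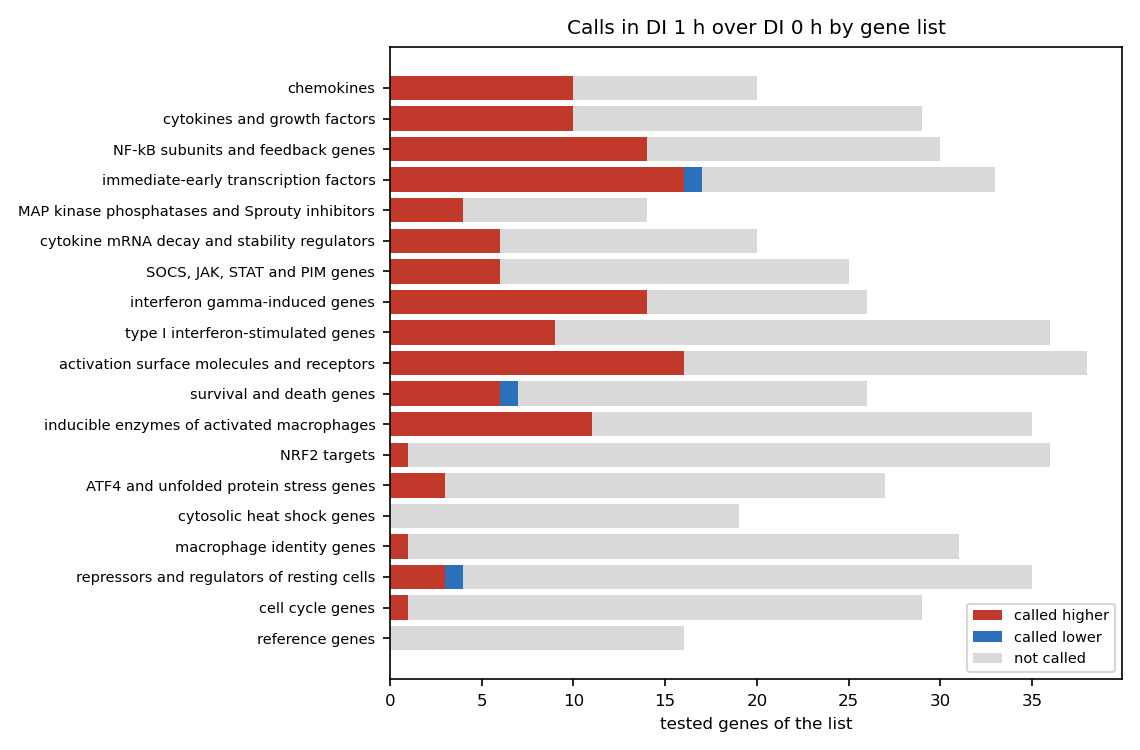
Number of tested genes (x axis) of each of 19 gene lists (rows) called higher, called lower or not called in DI 1 h over DI 0 h. Chemokines and genes induced by IFNg have the highest shares of calls, 10 of 20 and 14 of 26, and cytosolic heat shock and reference genes have none, 0 of 19 and 0 of 16. Of all tested genes 3.59% were called.

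The NRF2 targets, a programme of antioxidant and detoxifying genes, gave few calls. Of 36 tested 1 was called higher and none lower, 2.78% against 3.29% of all genes, and the median log2 fold change was −0.11. The member called was Slc7a11, the cystine importer gene, with 219.8 and 204 CPM in the DI 1 h libraries, against 66.1 and 69.8 CPM in the DI 0 h libraries (log2 fold change 1.64 ± 0.28, adjusted p = 0.00041). Hmox1, heme oxygenase 1, had 183 and 144 CPM in the DI 1 h libraries, against 232 and 193 CPM in the DI 0 h libraries (log2 fold change −0.38 ± 0.30, adjusted p = 0.66). Gclm, the modifier subunit gene of glutamate-cysteine ligase, had 2920 and 1944 CPM in the DI 1 h libraries, against 1544 and 1725 CPM in the DI 0 h libraries (log2 fold change 0.57 ± 0.28, adjusted p = 0.38). Nqo1, a quinone reductase gene, had 28.7 and 29.3 CPM in the DI 1 h libraries, against 39.2 and 17.3 CPM in the DI 0 h libraries (log2 fold change 0.04 ± 0.47, adjusted p = 0.99). None of these last 3 passed the test, although the lower 1 h library of Gclm was above both 0 h libraries. The gene of NRF2 itself, Nfe2l2, had 700.2 and 416 CPM in DI cells at 1 h, against 180.1 and 334 CPM in DI cells at 0 h (log2 fold change 1.12 ± 0.35, adjusted p = 0.091), and was called without DI 0 h replicate 2 (log2 1.63, adjusted p = 0.035). The pentose phosphate gene Tkt had 44.6 and 76.7 CPM in DI cells at 1 h, against 69.8 and 198 CPM in DI cells at 0 h (log2 fold change −1.14 ± 0.38, adjusted p = 0.12), and was called lower without DI 0 h replicate 1 (log2 −1.71, adjusted p = 0.0065).

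Genes of the integrated stress and unfolded protein responses were called higher in 3 of 27 and lower in none, with a median of 0.29: Slc7a11, Ppp1r15a and Atf4. Ppp1r15a, which encodes the eIF2 alpha phosphatase subunit GADD34, had 113 and 88.1 CPM in the DI 1 h libraries, against 31.8 and 43.3 CPM in the DI 0 h libraries (log2 fold change 1.41 ± 0.29, adjusted p = 0.0037), and lost its call without DI 0 h replicate 1 (log2 1.21, adjusted p = 0.082 without DI 0 h replicate 1). Atf4 had 499.5 and 1149 CPM in the DI 1 h libraries, against 368 and 322 CPM in the DI 0 h libraries (log2 fold change 1.26 ± 0.32, adjusted p = 0.024). Its 1 h replicates differed more than the groups did, and without DI 1 h replicate 2 its log2 fold change was 0.53 with an adjusted p of 0.53. Atf4 also lost the call without either DI 0 h library (adjusted p = 0.10 and 0.13). None of 19 cytosolic heat shock genes was called in edgeR's test, where 3.59% of all tested genes were called. Their median log2 fold change was −0.03 and their range −0.82 to 0.69. Hsph1, a co-chaperone of Hsp70, had 287 and 421 CPM in DI cells at 1 h, against 88.7 and 349 CPM in DI cells at 0 h (log2 fold change 0.69 ± 0.46, adjusted p = 0.58), and was called without DI 0 h replicate 2 (log2 2.00, adjusted p = 0.027).

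Macrophage identity genes, cell cycle genes and reference genes were called in 1 of 31, 1 of 29 and 0 of 16, all calls higher. These shares, 3.23%, 3.45% and 0%, were near the 3.29% called higher among all tested genes. The list medians were −0.07, 0.02 and 0.04. Scaling on genes of at least 32 CPM moved the median of all tested genes by −0.13, which is more than these list medians. The macrophage identity gene called was Mrc1, the mannose receptor, with 289 and 177 CPM in the DI 1 h libraries, against 86.9 and 108 CPM in the DI 0 h libraries (log2 fold change 1.25 ± 0.31, adjusted p = 0.018), and it lost the call without DI 1 h replicate 1 or DI 0 h replicate 1 (log2 0.86, adjusted p = 0.25 without DI 1 h replicate 1). The growth factor receptor gene Csf1r had 165 and 187 CPM in DI cells at 1 h, against 221 and 131 CPM in DI cells at 0 h (log2 fold change 0.00 ± 0.28). Plk2, a stress-induced polo-like kinase gene, was the cell cycle gene called, with 818 and 612 CPM in DI cells at 1 h, against 196 and 179 CPM in DI cells at 0 h (log2 fold change 1.93 ± 0.26, adjusted p = 1.6e-05). Of 35 repressors and short-lived regulators of resting cells, 3 were called higher and 1 lower. Kdm6b, the H3K27 demethylase gene, had 259.8 and 327 CPM in the DI 1 h libraries, against 3.36 and 6.34 CPM in the DI 0 h libraries (log2 fold change 5.88 ± 0.39, adjusted p = 8.6e-11). Ccnl1, a cyclin of splicing, had 887 and 629.7 CPM in DI cells at 1 h, against 224 and 283 CPM in DI cells at 0 h (log2 fold change 1.58 ± 0.28, adjusted p = 0.00055), and Skil had 168 and 120.2 CPM in DI cells at 1 h, against 48.1 and 82.5 CPM in DI cells at 0 h (log2 fold change 1.14 ± 0.29, adjusted p = 0.022). Skil lost the call without replicate 1 of either group (log2 0.80, adjusted p = 0.29 without DI 0 h replicate 1). Txnip, an arrestin that inhibits thioredoxin, was lower with 83.4 and 155 CPM in DI cells at 1 h, against 236 and 273 CPM in DI cells at 0 h (log2 fold change −1.09 ± 0.30, adjusted p = 0.042), and lost the call without any but DI 1 h replicate 2 (log2 −0.72, adjusted p = 0.37 without DI 1 h replicate 1).

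Of the 32 genes called lower, only 1 kept the call without any 1 of the 4 libraries. Of the 14 with the largest falls among genes of at least 20 CPM, 13 lost the call when 1 of the 4 libraries was left out. Rsrp1, which encodes an arginine and serine rich nuclear protein, was the exception, with 134 and 195 CPM in the DI 1 h libraries, against 616 and 479.8 CPM in the DI 0 h libraries (log2 fold change −1.74 ± 0.29, adjusted p = 0.00034). Its groups did not overlap, which the rule for the largest falls required and which held for all 32 genes called lower. Klf10, a TGF-beta inducible repressor, had 27.1 and 40.2 CPM in the DI 1 h libraries, against 56.02 and 170.2 CPM in the DI 0 h libraries (log2 fold change −1.75 ± 0.41, adjusted p = 0.011), and without DI 0 h replicate 2 its log2 fold change was −0.73 (adjusted p = 0.36). It was also not called without DI 1 h replicate 1 (adjusted p = 0.15). Rhob, a small GTPase gene of endosomes, had 42.8 and 65.3 CPM in the DI 1 h libraries, against 128 and 183 CPM in the DI 0 h libraries (log2 fold change −1.52 ± 0.32, adjusted p = 0.0044). Rhob was not called without DI 1 h replicate 1 or DI 0 h replicate 2 (log2 −1.25, adjusted p = 0.099 without DI 1 h replicate 1). Tm2d3 had 4.22 and 4.88 CPM in DI cells at 1 h, against 21.7 and 24.7 CPM in DI cells at 0 h (log2 fold change −2.34 ± 0.52, adjusted p = 0.007), and was not called without either 1 h library (log2 −2.24, adjusted p = 0.073 without DI 1 h replicate 1). The ribosomal protein gene Rps24 had 505 and 597 CPM in DI cells at 1 h, against 719 and 2021 CPM in DI cells at 0 h (log2 fold change −1.31 ± 0.35, adjusted p = 0.032), with the 0 h replicates far apart. Its log2 fold change was −0.38 without DI 0 h replicate 2 (adjusted p = 0.60), and it was not called without either 1 h library (adjusted p = 0.21 and 0.12). The metabolic genes Gart, Nudt5, Mdh1 and Gpi1, the lysosomal gene Idua, the cardiolipin enzyme gene Taz, the RNA-processing genes Lsm10 and Hnrnph3 and the signalling gene Git2 had log2 fold changes of −1.91 to −1.25, and their highest adjusted p without 1 library was 0.13 to 0.31.

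The first hour in DI cells was then set beside that in Ctrl cells, which shares no library with it. In Ctrl cells 389 genes were called higher (3.65%) and 45 lower (0.422%). Called higher in both were 233 genes, 66.4% of the 351 of DI cells and 59.9% of the 389 of Ctrl cells. Of the 351, 341 had a positive log2 fold change in Ctrl cells. Across the 3951 genes of at least 32 CPM the log2 fold changes had a Pearson r of 0.77, and across all tested genes 0.45, where genes are not independent replicates. In the 233 genes the median of the DI minus the Ctrl log2 fold change was −0.07, and 126 had the lower log2 fold change in DI cells. The difference between the first-hour changes was tested as 1 contrast, DI minus Ctrl. It was called for 27 genes (0.253%), 23 lower in DI (0.216%) and 4 higher (0.0375%), and 11 of the 27 kept the call without any 1 of the 8 libraries.

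**Figure D4:**
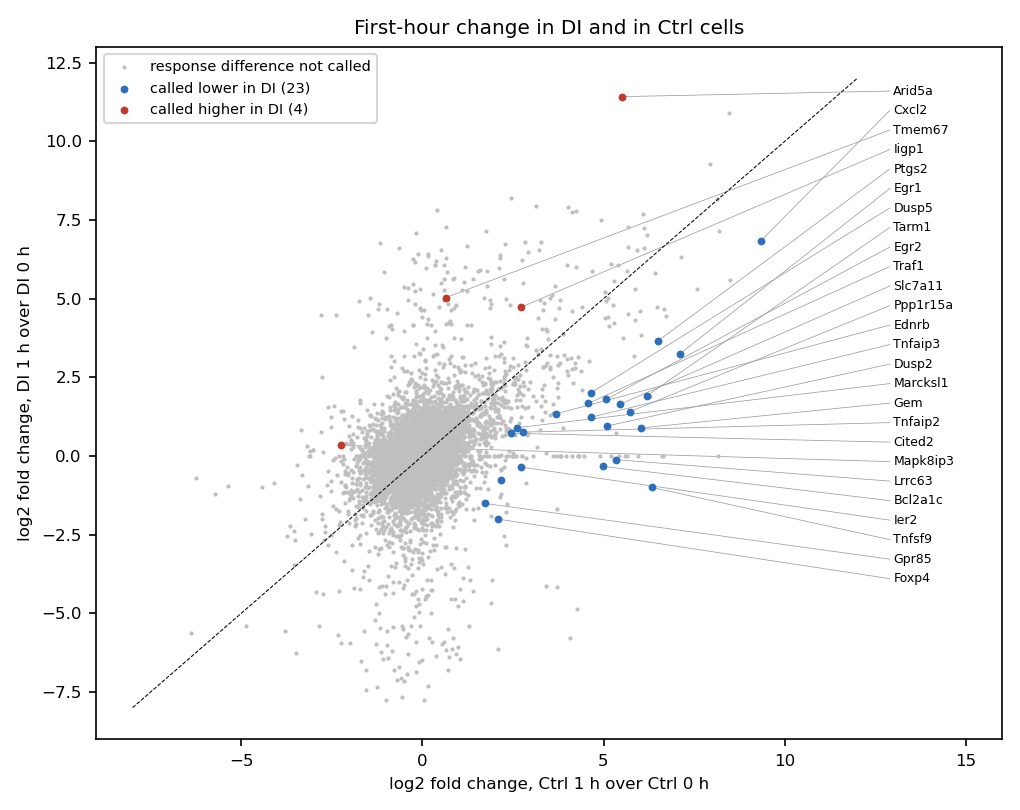
Log2 fold change over the first hour in DI cells (y axis) against that in Ctrl cells (x axis), 1 point per tested gene, with the dashed line at equal change. The 23 genes with a response called lower in DI lie below the line, with Tnfsf9 at −0.999 in DI and 6.33 in Ctrl, and the 4 called higher lie above it.

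Tnfsf9, which encodes the T cell costimulator 4-1BB ligand, had 4.42 and 3.35 CPM at 1 h and 7.42 and 7.95 CPM at 0 h in DI cells, against 243 and 510.2 CPM and 4.88 and 4.44 CPM in Ctrl cells (response difference −7.33 ± 0.68, adjusted p = 1e-06). It was not called between 1 h and 0 h in DI cells (adjusted p = 0.37). Ppp1r15a had 113 and 88.1 CPM at 1 h and 31.8 and 43.3 CPM at 0 h in DI cells, against 589 and 726 CPM and 13.8 and 10.7 CPM in Ctrl cells (response difference −4.33 ± 0.42, adjusted p = 1.7e-06). Egr1 had 505 and 584 CPM in Ctrl cells at 1 h and 4.64 and 3.12 CPM in Ctrl cells at 0 h (response difference −3.86 ± 0.49, adjusted p = 0.00011). In these 3 genes both DI 1 h libraries were below both Ctrl 1 h libraries. Slc7a11 had higher levels in DI cells. It had 85.1 and 103 CPM in Ctrl cells at 1 h and 2.24 and 2.02 CPM at 0 h, below the DI libraries at both times, and its response difference was −3.81 ± 0.43, adjusted p = 1.5e-05. For Tnfaip3 Ctrl cells had 421 and 435 CPM at 1 h and 15.3 and 18.4 CPM at 0 h (response difference −3.43 ± 0.49, adjusted p = 0.00041). Cxcl2 reached 6879 and 7892 CPM in Ctrl cells at 1 h, with 13.04 and 9.48 CPM at 0 h (response difference −2.50 ± 0.42, adjusted p = 0.0034). For Ptgs2 the difference was −2.85 ± 0.48, adjusted p = 0.0034. The last 2 lost the call without 1 library, with adjusted p of 0.054 and 0.052. Of the 23 genes, 18 had a higher mean in DI than in Ctrl cells at 0 h, 20 had a lower mean in DI than in Ctrl cells at 1 h, and 15 had both. The 23 were chosen by a difference between these same libraries, which favours such counts. Shares over all tested genes were not computed.

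Nfkbiz had a log2 fold change of 7.24 in DI and 6.13 in Ctrl cells and differed in level. It had 764 and 536 CPM in DI cells at 1 h, against 2515 and 2458 CPM in Ctrl cells at 1 h. Its 0 h levels were 4.59 and 4.03 CPM in DI cells, against 35.3 and 35.6 CPM in Ctrl cells, and the response difference was 1.11 ± 0.38, adjusted p = 0.65. The Il1b level at 1 h was 5.63 and 3.49 CPM in DI cells, against 119.99 and 165 CPM in Ctrl cells. Its 0 h level was 0 and 0 CPM in DI cells, against 1.28 and 2.92 CPM in Ctrl cells, so its fold change in DI cells is known only as a lower bound and is not set against that of Ctrl cells. Both genes show lower levels in the DI libraries at both times. For Tnf, with 817 and 643 CPM in Ctrl cells at 1 h and 11.1 and 13.9 CPM at 0 h, the response difference was −1.56 ± 0.39, adjusted p = 0.14. Socs3, Irf1 and Acod1 had response differences of 0.04 ± 0.61, 0.33 ± 0.37 and 0.28 ± 0.41, and none was called, which does not show that the changes were equal. Iigp1 had a larger fold change in DI cells, with 1748 and 1804 CPM in Ctrl cells at 1 h and 276 and 261 CPM at 0 h (response difference 2.00 ± 0.39, adjusted p = 0.019). It lost the call without DI 0 h replicate 2, among others (adjusted p = 0.13). The response difference of Arid5a, 5.91 ± 1.14, adjusted p = 0.019, is fitted over 2 DI 0 h libraries at 0 and is no bound, and its call was lost without either of them.

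The 1 h sample caught the genes at different stages of their course in DI cells. Of the 351 genes called higher, the highest mean fell at 1 h for 65, at 2 h for 117, at 4 h for 103 and at 6 h for 66, and at 6 h 333 were still above their 0 h mean. Of the 32 called lower, 24 had their lowest mean at 1 h. The 0 h and 1 h means come from the libraries that gave the calls. That choice favours a peak or a trough at 1 h and later means on the same side of 0 h. Shares over all tested genes were not computed, and the later values are given as levels. Tnip3 had 28.5 ± 5.14 CPM before the stimulus, then 1678 ± 124, 935 ± 21.5, 451 ± 56.6 and 279.9 ± 37.1 CPM after 1, 2, 4 and 6 h. Zfp36 had 74.9 ± 14.8 CPM before the stimulus, then 660.1 ± 12.04, 1232 ± 117, 396 ± 32.3 and 313 ± 22.4 CPM after 1, 2, 4 and 6 h. Acod1 had 78.3 ± 21.7 CPM before the stimulus, then 3742 ± 610.5, 20376 ± 9693, 27503 ± 5221 and 19133 ± 5202 CPM after 1, 2, 4 and 6 h. Tnip3 was highest at 1 h, Zfp36 at 2 h and Acod1 at 4 h. Rsrp1 was lowest at 1 h, with 548 ± 96.6 CPM before the stimulus, then 165 ± 43.7, 295 ± 29.4, 608 ± 212 and 641 ± 149.97 CPM after 1, 2, 4 and 6 h.

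**Figure D5:**
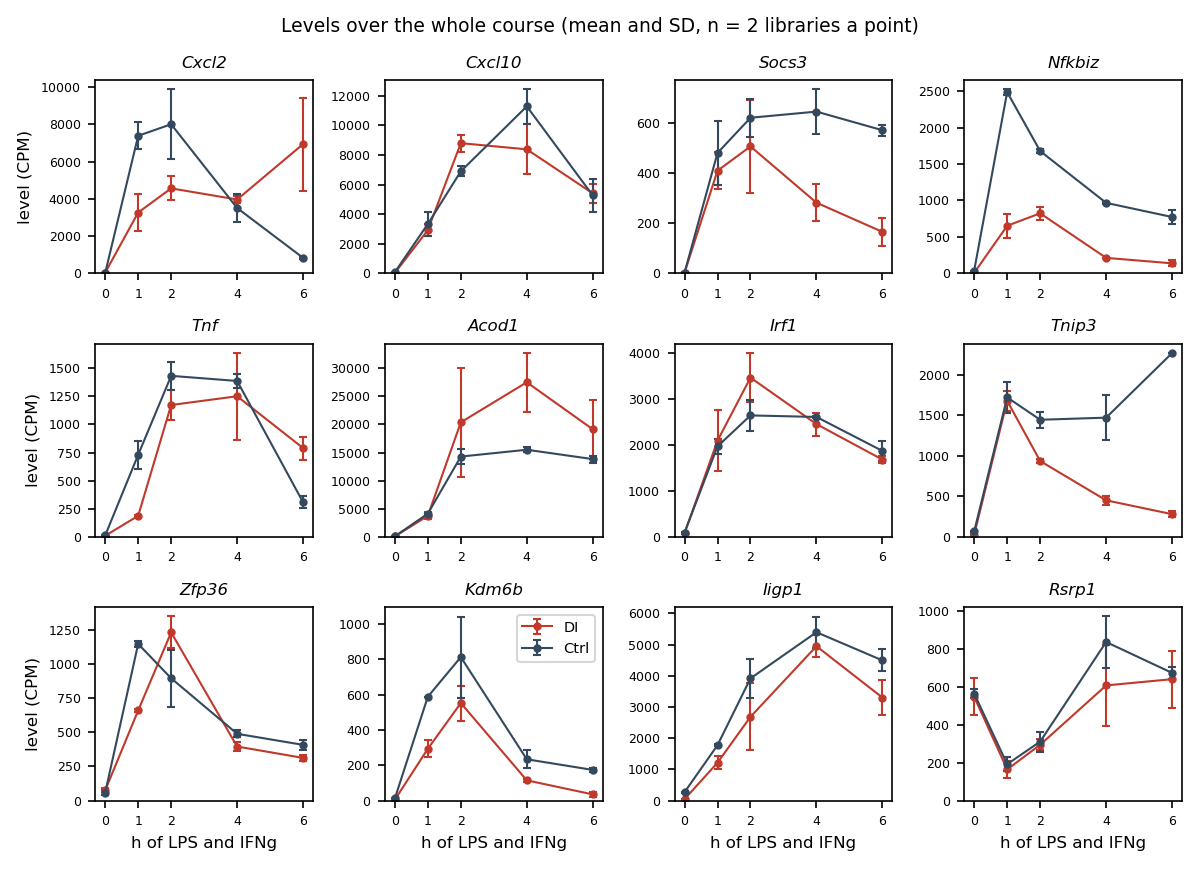
Levels of 12 genes in CPM (y axes, from 0) in DI and Ctrl cells from 0 to 6 h of LPS and IFNg (x axes), as mean and SD of 2 libraries. In DI cells Tnip3 is highest at 1 h, Zfp36 and Kdm6b at 2 h and Acod1 at 4 h, and Rsrp1 is lowest at 1 h in both.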

How the data were processed

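RNA was measured in 20 libraries of mouse bone marrow-derived macrophages, in 10 groups of 2. Per the labels' protocols, poly(A) RNA was primed with a barcoded oligo-dT, samples were pooled by Actb qPCR, and 12 cycles of PCR gave strand-specific libraries of transcript 3′ ends, with no molecular identifiers named. STAR, HTSeq and DESeq2 are the tools, and mm10 the build, in the submitters' processing notes, which give no versions. The authors deposited raw counts per Ensembl gene, with no normalization. All 20 columns were matched to libraries by name, and 21745 of 22165 genes had a symbol in GENCODE.

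From these counts, R 4.3.3 with edgeR 4.0.16 was used to fit a robust quasi-likelihood model to all 20 libraries, with 1 coefficient per group, TMM scaling and filterByExpr, which kept 10663 genes. The contrasts were DI 1 h over DI 0 h, Ctrl 1 h over Ctrl 0 h, and their difference, with Benjamini-Hochberg adjustment over all tested genes and a threshold of 0.05. A value after ± is an SE for a log2 fold change, computed from the F statistic, and an SD for a level. Counting intervals are exact and cover counting error only, since PCR copies are not independent molecules. Genes at 0 in a whole group have their fold bounded at 3 counts per library, and their fitted fold change is no bound. Such a bound takes reads as independent, and is less firm where several reads come from 1 molecule.

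The rule for named genes took the 14 largest rises and 14 largest falls among called genes of at least 20 CPM whose libraries do not overlap, up to 8 response differences each way, a panel, and 5 members per list by smallest p, without predicted genes. Some largest falls are given as a range, and a few items are not reported here. List members given only by a log2 fold change, and Kit, were named after their values were seen. The members, lists, panel, tests and motifs were chosen with earlier results of these data known. Lists are described by counts and medians, without a set test.

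Alternatives were size factors of DESeq2 1.42.0, its Wald test, limma-voom (limma 3.58.1), other filters, scaling on genes of at least 32 CPM, smaller fits, a replicate block, counts collapsed to estimated molecules, and leaving out each library. The steps were tested on simulated counts. Across tested genes, the correlation of same-numbered deviations between DI 1 h and DI 0 h was 0.03, and the main fit used no pairing. Library traits did go with the number. The mitochondrial share of counts was 2.21% in replicate 1 and 1.44% in replicate 2 at 1 h, and 1.78% and 1.25% at 0 h. Whether the numbers mark a batch was not tested. Replicates were separate libraries by their counts, with a chi-square per degree of freedom of 35.5 at 1 h and 42.8 at 0 h.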

Additional observations from a re-analysis of the deposited data

Results flagged for a closer look

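For 27 genes the first-hour change differed between DI and Ctrl cells in a direct test of the difference (edgeR, adjusted p under 0.05). Values in parentheses are the DI minus the Ctrl log2 fold change, each from 2 libraries per group. In 23 the response was lower in DI cells. Signalling and feedback genes among them were Tnfsf9 (−7.33), Ppp1r15a (−4.33), Dusp2 (−4.15), Tnfaip3 (−3.43), Traf1 (−2.91), Dusp5 (−2.64) and Tnfaip2 (−2.01). Transcription regulators were Foxp4 (−4.08), Egr1 (−3.86), Egr2 (−3.27), Ier2 (−3.07) and Cited2 (−1.72). Others were Lrrc63 (−5.48), Bcl2a1c (−5.31), Gem (−5.13), Tarm1 (−4.28), Slc7a11 (−3.81), Gpr85 (−3.23), Ptgs2 (−2.85), Cxcl2 (−2.50), Ednrb (−2.34) and Marcksl1 (−1.72). Bcl2a1c has close copies among which reads may be split. The response was higher in DI cells for Iigp1 (2.00), Mapk8ip3 (2.59), Tmem67 (4.39) and Arid5a (5.91). The Arid5a value is fitted over DI 0 h libraries that are both at 0 and is no bound.

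Of the 27, 11 kept the call without any 1 of the 8 libraries, among them Tnfsf9, Ppp1r15a, Tarm1, Egr1, Slc7a11, Tnfaip3, Ednrb, Traf1, Gpr85 and Tmem67. Of these, Tmem67 and Ednrb lost the call in the fit of the 8 libraries alone (adjusted p = 0.081 each). Tmem67 and Gpr85 lost it with limma-voom (adjusted p = 0.28 and 0.056). The change of Tmem67 in DI cells rests on 3 reads at 0 h, against 90 reads at 1 h. Traf1, a TNF receptor adaptor gene, had 97.3 and 71.7 CPM at 1 h and 24.6 and 28.2 CPM at 0 h in DI cells, against 357 and 265 CPM at 1 h and 11.5 and 14.4 CPM at 0 h in Ctrl cells. Gpr85, the 1 gene called lower in DI and higher in Ctrl cells, had 3.62 and 1.95 CPM at 1 h and 7.25 and 8.18 CPM at 0 h in DI cells, against 62.5 and 64.3 CPM and 23.4 and 15.0 CPM in Ctrl cells. Its fall in DI cells was not called without 1 of 3 libraries (log2 −1.09, adjusted p = 0.31 without DI 1 h replicate 2). Dusp2 depended on 1 library: without DI 0 h replicate 1, which held 4.06 CPM against 0.115 CPM in replicate 2, its difference was −0.38 (adjusted p = 1.00). Gem went to −3.09 (adjusted p = 0.76) without DI 0 h replicate 2, Ier2 to −2.002 (adjusted p = 0.50) and Bcl2a1c to −3.60 (adjusted p = 0.70) without DI 0 h replicate 1. The reads per molecule estimated above differ between DI and Ctrl libraries, and their part in these differences was not tested.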

How the results depend on the processing

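The count of genes called in DI 1 h over DI 0 h was 383, and 195 with only the 4 libraries compared and 237 with only the 10 DI libraries. Under the other 12 alternatives it lay between 278 without DI 0 h replicate 1 and 556 with the DESeq2 Wald test. Without each library in turn it was 278 to 365. With a replicate block it was 366, against 22 for the response difference and 412 for Ctrl. Whether the numbers pair the libraries is not known, so the block only shows that the counts hold within 1.5 times. The Ctrl count of 434 was 865 with only the groups compared, 967 with only the 10 Ctrl libraries, 859 on estimated molecules and 256 to 318 without 1 library. The response difference of 27 was 60 with no filter, 15 with limma-voom, 50 with the DESeq2 Wald test, 11 with only the groups compared and 14 to 24 without 1 library. Among the 143 genes named or with a response difference, no called value changed sign. The causes of these changes were not tested. On estimated molecules, 314 of the 351 genes higher and 23 of the 32 lower were called again. Of 92 called genes among the named ones and those with a response difference, 58 kept the call under all 14 alternatives. The high estimate of reads per molecule, where it holds, limits the depth of the DI libraries, and genes of few reads at 0 h have the least certain fold changes.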

Other observations

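Of the 351 genes called higher in DI cells at 1 h, 122 belong to the lists and 229 to none. The 6 genes that follow were picked from the 229 after their values were seen, and all passed edgeR's test. Batf2, a bZIP factor gene induced by interferon, had 177 and 151 CPM in DI cells at 1 h, against 7.25 and 6.34 CPM in DI cells at 0 h (log2 fold change 4.60 ± 0.29, adjusted p = 4.1e-11). Prdm1, the gene of the repressor Blimp-1, had 114 and 138 CPM in DI cells at 1 h, against 11.5 and 16.3 CPM in DI cells at 0 h (log2 fold change 3.18 ± 0.31, adjusted p = 7.4e-08). Bach1, a repressor that competes with NRF2 at the antioxidant response element, had 764 and 764 CPM in DI cells at 1 h, against 164 and 269.9 CPM in DI cells at 0 h (log2 fold change 1.81 ± 0.29, adjusted p = 0.00015). Cgas, the cytosolic DNA sensor gene, had 205 and 122 CPM in DI cells at 1 h, against 32.3 and 41.6 CPM in DI cells at 0 h (log2 fold change 2.14 ± 0.32, adjusted p = 5.6e-05). The kinase gene Map3k8, which acts above ERK, had 43.8 and 47.1 CPM in DI cells at 1 h, against 8.31 and 6.69 CPM in DI cells at 0 h (log2 fold change 2.61 ± 0.35, adjusted p = 1.3e-05), and the adaptor gene Myd88 had 93.0 and 132 CPM in DI cells at 1 h, against 34.6 and 38.7 CPM in DI cells at 0 h (log2 fold change 1.61 ± 0.32, adjusted p = 0.0026). Both 1 h libraries were above both 0 h libraries in each of the 6, as in 349 of the 351. Without any 1 of the 4 libraries all kept the call except Myd88, with an adjusted p of up to 0.053.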
